A study of Homo sapiens with 12 samples.

Results

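IL20RA, PFN3, NEUROD2, COL1A2, LHX3, LCAT, AK5, CTF1 and DRC7 are genes known mainly from tissues other than B cells, and in cultured B cells they had more ribosome footprints under sodium arsenite than in control cultures when counts were set on the scale of spike-in oligomers. They are 9 of 12357 genes counted. They were chosen from these same libraries for being higher under arsenite, so their difference between arsenite and control is given as a description with no test of its own. The question asked of them was whether that difference was shared by the cultures and by both kinds of library, or rested on 1 culture.

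Footprints were sequenced from lymphoblastoid lines, B cells that Epstein-Barr virus has immortalized and that grow in suspension. Arsenite cultures of GM18505, GM19193 and GM19204 received sodium arsenite for 30 min, and control cultures of the same 3 lines received nuclease-free water in its place. All cultures were labelled wild type, each line came from 1 person, and there was 1 culture per line and condition, so n = 3 cell lines. Each culture gave a T library, treated with CRISPR guides against ribosomal RNA, and a U library without that step, which are technical replicates of 1 culture.

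Arsenite is an oxidative stressor. Cells exposed to it phosphorylate the translation factor eIF2 alpha, most messages then load fewer ribosomes, and a small set of messages loads more. A footprint is the stretch of RNA that a ribosome shields from nuclease, so footprints per gene follow both the amount of a message and the number of ribosomes on it. No RNA-seq was analysed here, and these contributions cannot be told apart. Nor can a change in the share of cells that carry a message and a change in footprints per cell be told apart in such bulk cultures. The genes belong to unrelated systems: cytokine signalling (IL20RA, CTF1), transcription factors of the nervous system and pituitary (NEUROD2, LHX3), collagen (COL1A2), plasma lipid handling (LCAT), nucleotide metabolism (AK5), actin binding in male germ cells (PFN3) and the axoneme of motile cilia (DRC7).

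Gene counts summed to between 637177 and 1730558 in the 6 arsenite libraries, against 1979496 to 4112703 in the 6 control libraries. In the arsenite culture of GM19193 the T and U libraries were unequal, with 718389 counts in T and 1730558 in U. On the spike-in scale the log2 ratio of arsenite to control had a median over all genes of −1.86 for GM18505, of −1.29 for GM19193 and of −2.21 for GM19204. In the edgeR quasi-likelihood test with Benjamini-Hochberg adjustment, 138 genes (1.12%) were higher and 9162 (74.1%) lower under arsenite at an adjusted p of 0.05. Without GM18505, 58 were higher. All 9 genes were among the 138, which the way they were chosen fixes. As a check of the cell type, all 14 B cell markers looked for were counted and all 14 fell under arsenite (median log2 fold change −2.03), whereas none of 7 T cell and none of 7 monocyte markers was in the table, which lists only genes that each library had read at least 1 time.

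In 6 of the 9 genes (IL20RA, PFN3, NEUROD2, COL1A2, LCAT and AK5) the arsenite culture was above its control culture in all 3 cell lines, which held for 393 of all genes (3.18%). Of those 6, IL20RA, NEUROD2, LCAT and AK5 were also higher in all 6 pairs of libraries, T with T and U with U, as were 157 of all genes (1.27%). In IL20RA, NEUROD2 and AK5 every arsenite culture lay above every control culture, as it did in 117 of all genes (0.947%). LHX3 was higher in 2 cell lines, and CTF1 and DRC7 were higher in GM19193 alone. These counts describe genes picked for the same contrast and carry no test. The levels by library show both kinds of pattern.

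**Figure D1:**
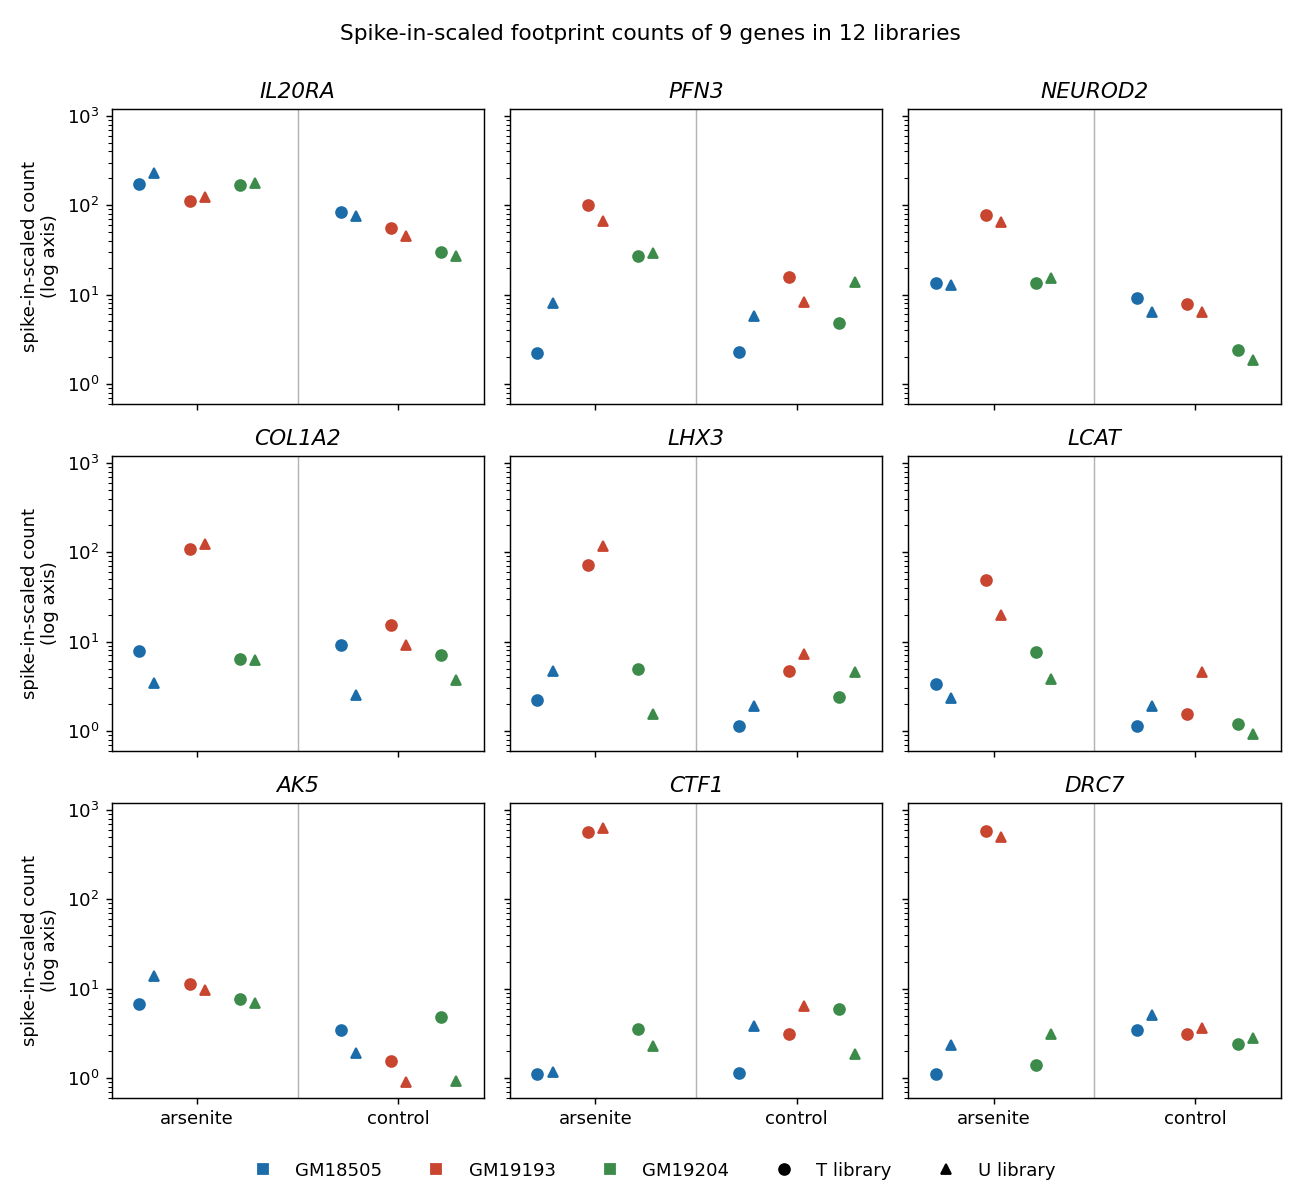
Spike-in-scaled footprint counts (log axis) of the 9 genes in each T library (circle) and U library (triangle), with the 6 arsenite libraries left of the 6 control libraries and cell lines by colour. The arsenite libraries of IL20RA, NEUROD2 and AK5 all lie above their control libraries, whereas those of CTF1 and DRC7 are raised far above their controls in both GM19193 libraries and lie near or below them in the other lines.

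Promoter sequence was at hand for 4 of the 9 genes, and is shown because IL20RA, NEUROD2 and AK5 were higher in every arsenite culture and LHX3 mainly in GM19193. Each is the 250 bases before the start that RefSeq annotates (GRCh38.p14). For LHX3 and AK5 that start is the end of the GENCODE gene span given with each gene, whereas for IL20RA and NEUROD2 it lies inside the span, so that their windows lie partly or wholly within the GENCODE gene. They are written 5′ to 3′ on the gene's strand: IL20RA at chr6:137044966-137045215 (minus strand), NEUROD2 at chr17:39607921-39608170 (minus), LHX3 at chr9:136205129-136205378 (minus) and AK5 at chr1:77281769-77282018 (plus). Capitals mark a match to 1 of 6 motifs searched on both strands.
IL20RA: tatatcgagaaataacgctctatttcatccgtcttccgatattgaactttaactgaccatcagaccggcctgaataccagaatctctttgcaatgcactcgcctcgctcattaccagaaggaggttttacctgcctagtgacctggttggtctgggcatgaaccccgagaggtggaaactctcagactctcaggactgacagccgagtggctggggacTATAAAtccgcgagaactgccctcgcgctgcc
NEUROD2: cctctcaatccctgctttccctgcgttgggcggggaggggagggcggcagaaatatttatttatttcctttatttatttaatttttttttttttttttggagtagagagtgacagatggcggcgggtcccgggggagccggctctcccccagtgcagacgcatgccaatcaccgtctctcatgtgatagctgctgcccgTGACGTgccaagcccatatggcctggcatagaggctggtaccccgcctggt
LHX3: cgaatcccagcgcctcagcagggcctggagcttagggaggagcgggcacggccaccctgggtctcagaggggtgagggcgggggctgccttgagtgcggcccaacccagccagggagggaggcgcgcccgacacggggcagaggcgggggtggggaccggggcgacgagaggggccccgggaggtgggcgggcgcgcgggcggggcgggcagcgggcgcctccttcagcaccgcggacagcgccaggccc
AK5: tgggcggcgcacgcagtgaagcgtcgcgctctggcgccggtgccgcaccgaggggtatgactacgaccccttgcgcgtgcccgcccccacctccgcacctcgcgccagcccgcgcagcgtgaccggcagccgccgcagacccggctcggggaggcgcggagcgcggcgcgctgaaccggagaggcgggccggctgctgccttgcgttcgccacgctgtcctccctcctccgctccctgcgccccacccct

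IL20RA held a TATA box (TATAAA) beginning 32 bases before the start, a motif found in 10.7% of 35116 promoters of this length. NEUROD2 held a core of the cyclic AMP response element (TGACGT) beginning 51 bases before the start, found in 7.10%. Of the other motifs searched, the heat shock element GAANNTTC occurred in 5.78% of promoters, the antioxidant response core TGACNNNGC in 10.9%, the AP-1 site TGANTCA in 6.57% and the ATF4-type site TGATGNAA in 3.14%, and none of these letters was in the 4 windows. The promoters of LHX3 and AK5 held no match, and their GC contents of 78.4% and 77.2% exceeded those of IL20RA (51.2%) and NEUROD2 (54.0%), against a median of 58.0% over all promoters.

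IL20RA encodes a chain of receptors for the IL-20 group of cytokines, known from skin and other epithelia. The gene (ENSG00000016402) lies on chromosome 6 from 136999971 to 137045180 on the minus strand of GRCh38. It had 353 footprints in the arsenite culture of GM18505 (155 in T and 198 in U), against 74 in T and 119 in U of its control culture. In GM19193 there were 241 under arsenite against 86 in control, and in GM19204 471 against 54. On the spike-in scale that was 2.55-fold in GM18505 (95% interval 2.13 to 3.06), 2.44-fold in GM19193 (1.90 to 3.16) and 6.16-fold in GM19204 (4.64 to 8.32). Such intervals are exact binomial intervals on the 2 counts of a pair and cover counting error only. All 3 cell lines were high under arsenite and the 12 libraries separated without overlap, with 111.8 scaled counts in the lowest arsenite library against 84.6 in the highest control library. The mean log2 ratio was 1.75 ± 0.75 (SD, n = 3). IL20RA was the gene least weighted to GM19193, with 24.3% of its scaled arsenite counts there, and the only one whose ratio was lowest in that line. It was also the most counted at baseline, with 333 footprints over the control libraries against a median of 418 for all genes.

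AK5 encodes a cytosolic adenylate kinase of the brain. The gene (ENSG00000154027) spans 77282019 to 77559966 on the plus strand of chromosome 1. Counts were low: 18, 20 and 20 footprints in the arsenite cultures of GM18505, GM19193 and GM19204, against 6, 2 and 5 in their control cultures. The ratios were 4.18-fold (95% interval 1.59 to 12.9) in GM18505, 8.71-fold (2.11 to 76.8) in GM19193 and 2.82-fold (1.03 to 9.63) in GM19204. The 3 arsenite cultures had nearly equal raw counts. On the spike-in scale they had 21.2, 20.7 and 15.2, and none overlapped a control culture. Its mean log2 ratio of 2.07 ± 0.72 had the smallest SD of the 9 genes.

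NEUROD2 encodes a basic helix-loop-helix transcription factor of excitatory neurons. The gene (ENSG00000171532) spans 39603536 to 39609777 on the minus strand of chromosome 17. Arsenite cultures of GM18505, GM19193 and GM19204 had 23, 137 and 39 footprints, against 18, 12 and 4 in the control cultures. The difference was smallest in GM18505 at 1.78-fold (95% interval 0.920 to 3.504, which includes 1), and was 9.94-fold (5.51 to 19.7) in GM19193 and 6.88-fold (2.48 to 26.5) in GM19204. Its scaled arsenite counts lay 71.4% in GM19193, and the mean log2 ratio was 2.24 ± 1.26.

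LCAT encodes the plasma enzyme that esterifies cholesterol on high-density lipoprotein, made chiefly by the liver. The gene (ENSG00000213398) spans 67939750 to 67944131 on the minus strand of chromosome 16. It had 5, 55 and 16 footprints in the arsenite cultures of GM18505, GM19193 and GM19204, against 4, 6 and 2 in the control cultures. GM18505 showed no difference beyond counting error (1.74-fold, 95% interval 0.375 to 8.79), whereas GM19193 (7.98-fold, 3.44 to 22.7) and GM19204 (5.65-fold, 1.33 to 50.6) did. Its groups overlapped, since the arsenite culture of GM18505 lay below the control culture of GM19193 on the spike-in scale (5.88 against 7.12). The gene span of LCAT overlaps that of SLC12A4 by 658 bases on the same strand. SLC12A4, a potassium-chloride cotransporter gene, fell in all 3 lines (log2 ratios −2.46 in GM18505, −0.67 in GM19193 and −2.61 in GM19204).

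PFN3 encodes a testis profilin, a small actin-binding protein. The gene (ENSG00000196570) is 1 exon of 553 bases on chromosome 5, from 177400109 to 177400661 on the minus strand. Its arsenite cultures had 9, 151 and 76 footprints in GM18505, GM19193 and GM19204, against 11, 19 and 19 in the control cultures. GM19193 (6.92-fold, 95% interval 4.28 to 11.8) and GM19204 (2.82-fold, 1.69 to 4.94) were high under arsenite. GM18505 was not (1.14-fold, 0.418 to 3.03), and its T libraries held 2 counts each. The mean log2 ratio was 1.48 ± 1.28.

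The other 4 genes had 90.9% to 99.3% of their scaled arsenite counts in GM19193. COL1A2 encodes the alpha 2 chain of type I collagen, the main fibrillar collagen of skin, tendon and bone. The gene (ENSG00000164692) spans 94394895 to 94431227 on the plus strand of chromosome 7. It had 239 footprints in the arsenite culture of GM19193 (59 in T and 180 in U) against 20 in its control culture, a 10.4-fold difference (95% interval 6.59 to 17.3). GM18505 had 10 under arsenite against 12 in control, and GM19204 had 17 against 10. Neither differed beyond counting error on the spike-in scale (1.16-fold, 0.450 to 2.94, and 1.20-fold, 0.519 to 2.93), and in both lines the T pair pointed down (log2 ratio −0.22 and −0.21) and the U pair up (0.51 and 0.65). COL1A2 therefore counts as higher in 3 of 3 cell lines by a margin that only GM19193 carries beyond counting error.

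LHX3 encodes a LIM-homeodomain transcription factor of the developing pituitary and motor neurons. The gene (ENSG00000107187) spans 136196250 to 136205128 on the minus strand of chromosome 9. It had 211 footprints in the arsenite culture of GM19193 (39 in T and 172 in U) against 11 in its control culture, a 16.7-fold difference (95% interval 9.14 to 34.0). In GM18505 there were 6 against 4 in control, and in GM19204 there were 9 against 7. Both of these ratios had intervals that include 1 (0.496 to 10.1 and 0.301 to 2.87).

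CTF1 encodes cardiotrophin-1, a cytokine of the interleukin-6 family first known from heart muscle. The gene (ENSG00000150281) spans 30896614 to 30903547 on the plus strand of chromosome 16. The arsenite culture of GM19193 held 1220 footprints, 307 in T and 913 in U, against 9 in its control culture. That was 118.0-fold on the spike-in scale (95% interval 62.0 to 258.7), and CTF1 ranked 2nd of all genes by the ratio in this line. GM18505 had 2 footprints under arsenite against 7 in control, and GM19204 had 8 against 7. Neither line differed beyond counting error (0.398-fold, 0.0404 to 2.09, and 0.807-fold, 0.256 to 2.61). The SD of the log2 ratios, 4.36, exceeded their mean of 1.79.

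DRC7 encodes a subunit of the nexin-dynein regulatory complex, which coordinates dynein arms in motile cilia and sperm tails. The gene (ENSG00000159625) spans 57694793 to 57731805 on the plus strand of chromosome 16. It followed CTF1 closely, with 1053 footprints in the arsenite culture of GM19193 (313 in T and 740 in U) against 6 in its control culture. The ratio of 152.8 (95% interval 69.96 to 417.3) ranked 1st of all genes in this line. Arsenite cultures of GM18505 and GM19204 held 3 and 6 footprints, against 11 and 5 in their control cultures, and both ratios were below 1 with intervals that include 1 (0.0681 to 1.44 and 0.215 to 3.51). LCAT, CTF1 and DRC7 all lie on chromosome 16, which holds 4.70% of the genes counted, and none of them lies within another.

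**Figure D2:**
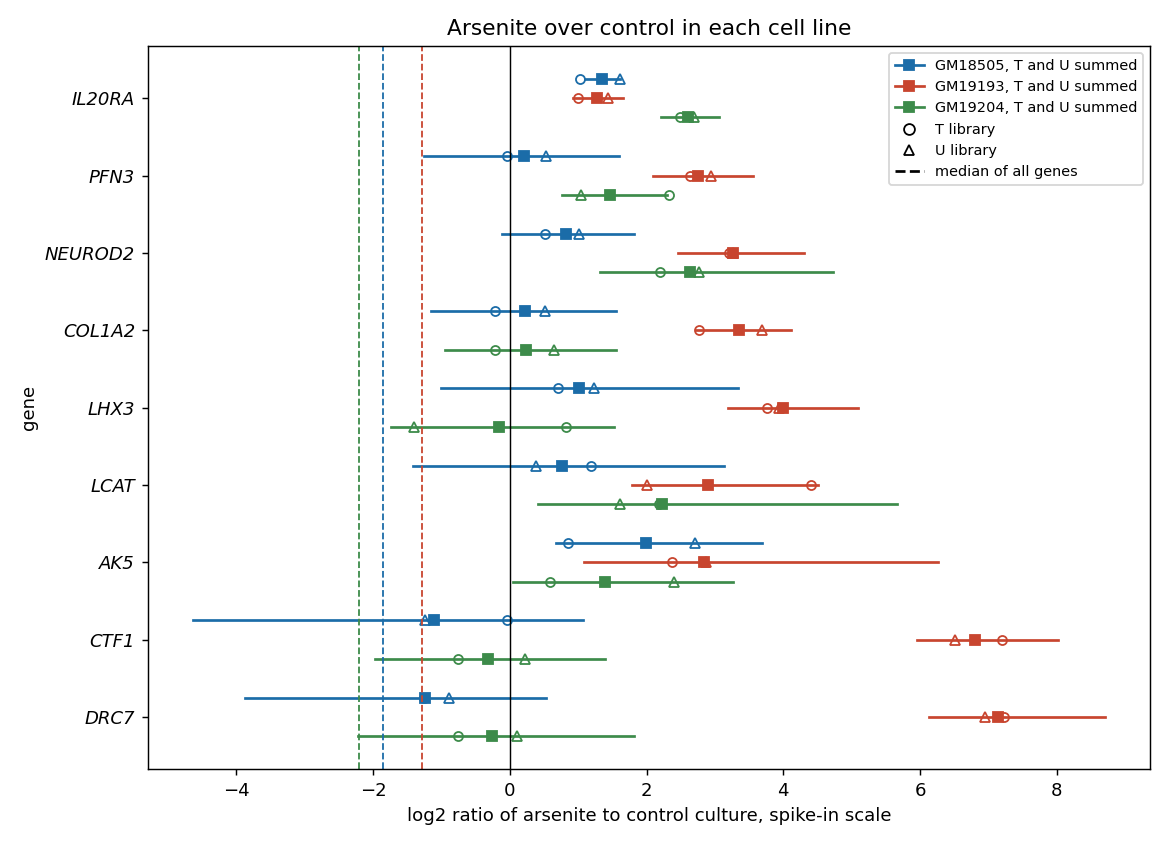
Log2 ratio of the arsenite to the control culture on the spike-in scale (x axis) for each gene and cell line, with T and U summed (filled square, line for the 95% counting interval) and for T (open circle) and U (open triangle) alone. Dashed lines give the median over all genes in each cell line (−1.86, −1.29 and −2.21). For COL1A2, LHX3, CTF1 and DRC7 the interval lies above 0 in GM19193 alone, and for IL20RA and AK5 it does so in all 3 cell lines.

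The excess in GM19193 was in both libraries of that culture. The log2 ratio of CTF1 was 7.20 in T and 6.52 in U, that of DRC7 7.23 and 6.95, that of LHX3 3.76 and 3.93, and that of COL1A2 2.76 and 3.69. T and U come from 1 culture, so their likeness speaks of the libraries and not of another culture. A gene was counted as apart in a cell line when its log2 ratio exceeded those in both other lines by more than 3. This held for 61 genes in GM19193, 1 in GM18505 and 2 in GM19204, and COL1A2, CTF1 and DRC7 were among the 61. The cut was not adjusted for the smaller fall of all genes in GM19193. Over all genes the median of this excess was 0.48 in GM19193, −0.61 in GM18505 and −0.92 in GM19204, so the 3 counts are not on an equal footing. DRC7 and CTF1 ranked 1st and 2nd of all genes by the excess in GM19193, and LHX3 fell just under 3 (2.99, against 3.11 for COL1A2). IL20RA was on the other side, 0.70 lower in GM19193 than in the mean of the other lines. In an edgeR quasi-likelihood fit of all 12 libraries with cell line by treatment terms, 7 of the 9 genes (all but LCAT and AK5) passed for a difference between cell lines, beside 5340 of all genes (43.2%). Its replicates are T and U of 1 culture, so it measures the spread between libraries only, and with equal library sizes 231 of all genes and COL1A2, CTF1 and DRC7 passed.

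**Figure D3:**
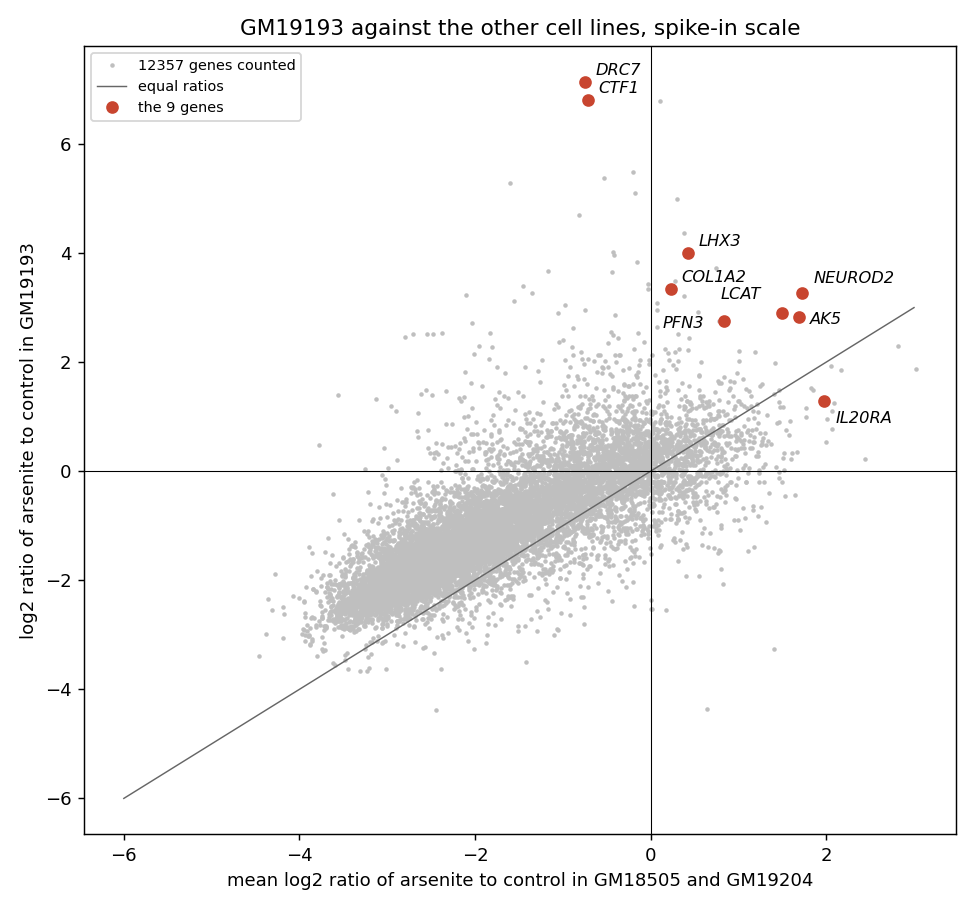
Log2 ratio of arsenite to control in GM19193 (y axis) against the mean of GM18505 and GM19204 (x axis) for 12357 genes (grey) and the 9 genes (red), on the spike-in scale. DRC7 and CTF1 lie at 7.14 and 6.81 in GM19193 and at −0.75 and −0.71 in the other lines, whereas the other 7 genes lie above 0 on both axes.

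Leaving out GM19193 parted COL1A2, LHX3, CTF1 and DRC7 from the other 5 genes. The fitted log2 fold change over GM18505 and GM19204 was 1.93 for IL20RA, 1.78 for AK5, 1.61 for LCAT, 1.59 for NEUROD2 and 1.02 for PFN3. COL1A2 had 0.24 and LHX3 0.36, and CTF1 and DRC7 turned to −0.66 and −0.79. The first 5 were among 149 genes (1.21% of all) called higher in this fit and the other 4 were not, which is a description, since the 9 genes were chosen on these libraries. With all 3 lines the fitted values were 1.73 for IL20RA, 2.10 for AK5, 2.27 for LCAT, 2.27 for NEUROD2, 1.67 for PFN3, 1.56 for COL1A2, 2.18 for LHX3, 3.11 for CTF1 and 2.93 for DRC7 (SE 0.40 to 0.72). Hence the 2 genes with the largest fitted fold changes were the 2 that changed sign. Each SE was derived from the F statistic of the fit, whose dispersion is moderated across genes. It therefore does not give the full spread of a gene between cell lines. The log2 ratios of CTF1 and DRC7 had SDs of 4.36 and 4.58 over the 3 lines. DESeq2 on the same scale, which called 88 genes higher (0.712%), likewise had those 5 among them and not the other 4, and gave 1.27 for COL1A2, 1.67 for LHX3, 0.90 for CTF1 and 0.90 for DRC7.

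**Figure D4:**
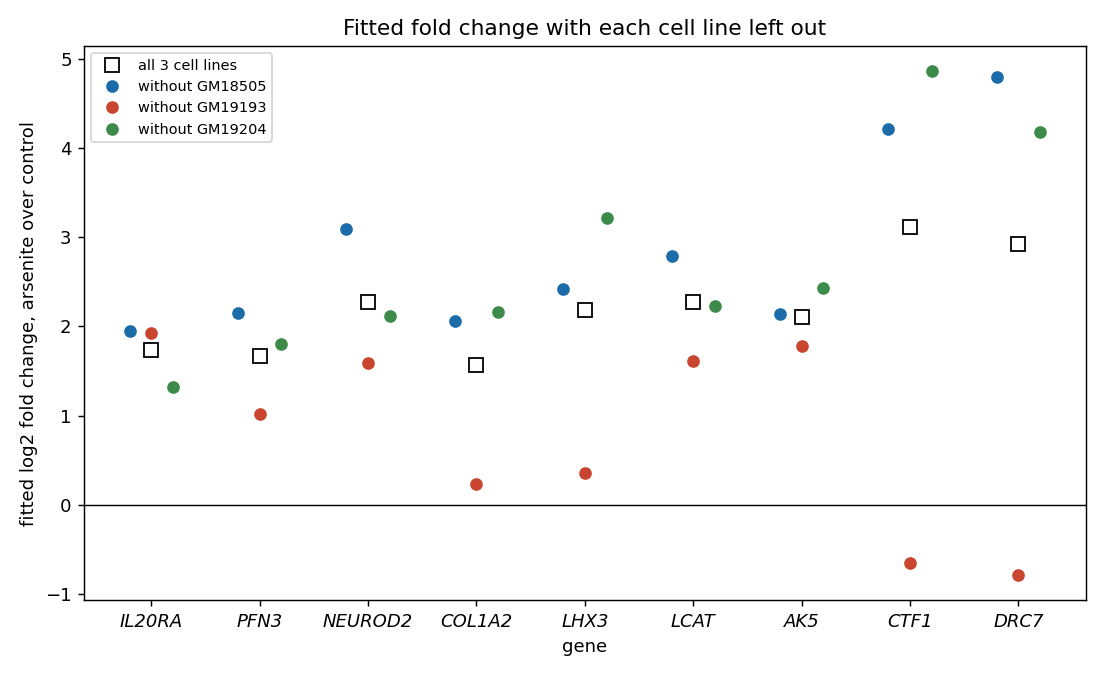
Fitted log2 fold change of arsenite over control (y axis, edgeR on the spike-in scale) for the 9 genes with all 3 cell lines (open square) and with each cell line left out (filled circles). Without GM19193, CTF1 and DRC7 lie below 0 and COL1A2 and LHX3 near 0, and the other 5 genes lie at 1.02 or above.

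Levels at baseline were compared between genes only per kilobase of exon. That length includes untranslated exon, so the order depends in part on how much of a gene is coding. NEUROD2, for example, has 6242 exonic and 1149 coding bases, and PFN3 has 553 and 414. Levels per coding length were not compared. In control cultures PFN3 (31.5 ± 12.9 spike-in-scaled counts per kb, SD, n = 3) and IL20RA (22.8 ± 11.1) led, close to the middle of all genes (percentiles 51.7 and 44.04), and did not differ from each other beyond their spread. CTF1 followed at 4.89 ± 1.47. LHX3 (2.08 ± 1.26), NEUROD2 (1.80 ± 0.96), LCAT (1.61 ± 0.98), DRC7 (1.41 ± 0.38) and COL1A2 (1.38 ± 0.71) overlapped one another, between percentiles 3.74 and 6.61, and AK5 was lowest at 0.616 ± 0.239, its range of 1 SD overlapping that of COL1A2. So 7 of the 9 genes had few footprints per length in untreated cells, and their ratios rest on small control counts.

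The profiles across libraries followed the division made by leaving out GM19193 only in part. Over the 12 libraries, Pearson correlation of log2 scaled counts lay between 0.884 and 0.971 among COL1A2, LHX3, CTF1 and DRC7. With these 4 genes LCAT correlated at 0.819 to 0.860, NEUROD2 at 0.727 to 0.794 and PFN3 at 0.680 to 0.780, whereas AK5 did so at 0.352 to 0.397 and IL20RA at 0.062 to 0.128. IL20RA correlated at 0.777 with AK5, 0.676 with NEUROD2, 0.433 with LCAT and 0.205 with PFN3. Libraries share cultures and several genes were high mainly in the 2 GM19193 arsenite libraries, so these are descriptions. Among 8768 genes with a symbol and a mean count of at least 20, those most like the mean profile of the 9 genes were FOXP1, a forkhead transcription factor of B cells (r = 0.954), REP15, an effector of a RAB GTPase (0.948), KCNC2, a voltage-gated potassium channel (0.945), ZNF385D, a zinc finger protein (0.940), and CDC42BPA, a CDC42-binding kinase (0.928). They too were high in the arsenite culture of GM19193. Their log2 ratios there were 2.93 for FOXP1, 6.80 for REP15, 3.84 for KCNC2, 3.34 for ZNF385D and 5.37 for CDC42BPA, against at most 1.01 in either other line.

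Genes of the families and pathways around the 9 genes moved much as all genes did. Of 51 partner genes counted, 1 rose (1.96%, beside 1.12% of all genes), 36 fell (70.6%, beside 74.1%) and 14 did not pass the edgeR test, with a median log2 fold change of −1.57 against −1.78 for all genes. For IL20RA, 6 of 8 counted partners fell and none rose, among them the kinase JAK1 (−2.76) and the transcription factor STAT3 (−2.74) through which its receptors signal, and its partner chain IL20RB was not in the table. For PFN3, both counted profilins fell (PFN1 −3.15, PFN2 −1.86). For NEUROD2, 2 of 5 fell, the dimerization partners TCF12 (−2.29) and TCF3 (−1.64). For AK5, all 7 counted nucleotide kinases fell, including AK3 (−2.98) and CMPK1 (−2.89). For LCAT, all 5 fell, including the sterol acyltransferase gene SOAT1 (−2.82) and the lipoprotein receptor gene SCARB1 (−2.62).

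Among the collagen partners, 1 rose. ADAMTS2, the protease that trims the amino ends of procollagen, rose by a log2 fold change of 1.79 (adjusted p = 0.00049 by edgeR), with 236 footprints in the arsenite culture of GM19193 against 6 in its control culture, 25 against 23 in GM18505 and 20 against 14 in GM19204. Like COL1A2 it was high in GM19193, and without that line its value was 0.33 and did not pass (adjusted p = 0.54 by edgeR). COL1A1, which encodes the other chain of the same collagen, had a value of −0.03 and did not pass, with 6, 14 and 10 footprints under arsenite against 4, 12 and 12 in control. The enzymes P4HA1 (−3.06) and P4HB (−2.93), which hydroxylate collagen prolines, were among 6 of 10 collagen partners that fell. For CTF1, 2 of 4 counted partners fell, the interleukin-6 receptor chain gene IL6R (−1.47) and IL6ST (−1.03), which encodes the signalling chain shared by that family, and LIFR, with which cardiotrophin-1 signals, had a value of 0.00 and did not pass. For LHX3, 4 of 7 counted partners fell, including LMO4 (−2.24), which encodes a LIM-only protein, and its cofactor LDB1 (−1.64), and for DRC7, 2 of 3 fell, IQCG (−1.26) and EFCAB2 (−1.38).

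**Figure D5:**
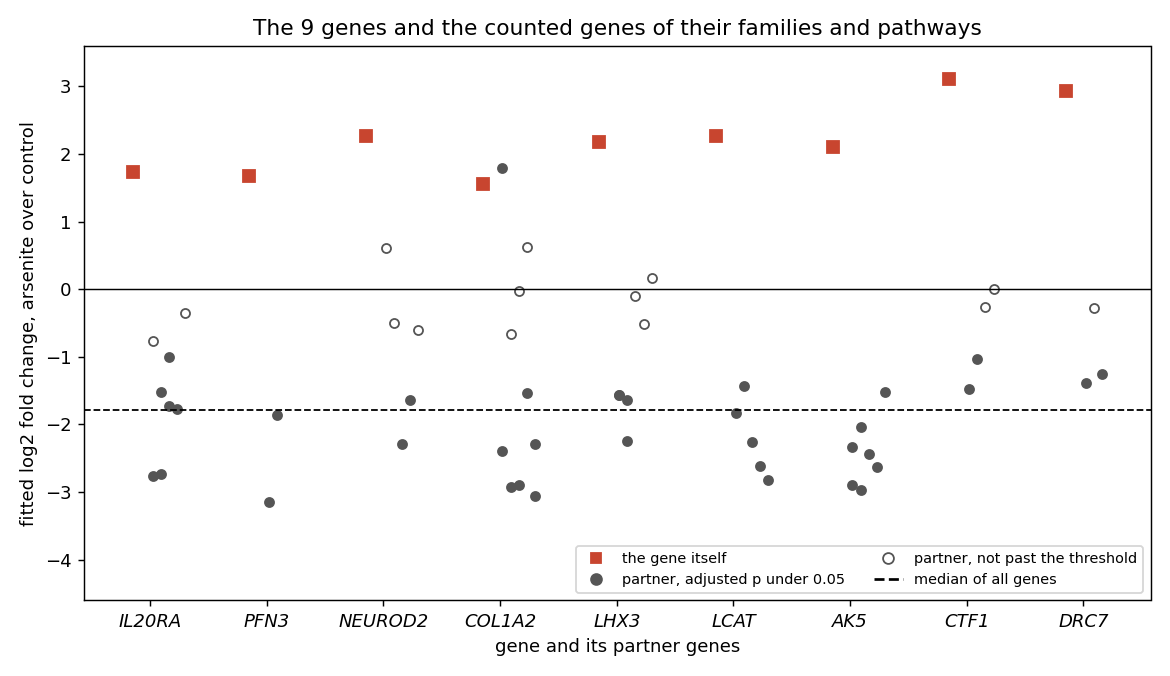
Fitted log2 fold change of arsenite over control (y axis) for each of the 9 genes (red square) and the counted genes of its family or pathway (grey circles, filled where the adjusted p is under 0.05), with the median of all genes dashed at −1.78. Of 51 partners, ADAMTS2 under COL1A2 is the only filled circle above 0.

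Markers of the tissues in which these genes are known were counted beside them. None of 8 anterior pituitary and none of 8 male germ cell markers was in the table. Of 12 fibroblast markers 5 were counted, of which 2 (VIM and FBN1) fell and none rose. THY1, a surface glycoprotein of fibroblasts and neurons, had 39 footprints under arsenite against 8 in control in GM19193, 6 against 2 in GM18505 and 4 against 7 in GM19204, and did not pass (log2 fold change 1.09). VIM carried most of the sum in GM19193. The summed fibroblast scaled count was 141.2, 862.5 and 205.7 in the arsenite cultures of GM18505, GM19193 and GM19204, against 352.5, 5155.3 and 774.0 in control. Fibroblast collagen COL3A1 and the proteoglycan genes LUM and DCN were not in the table. Of 12 neuron markers 3 were counted and none passed (sums 23.5, 80.6 and 26.7 under arsenite against 35.4, 70.003 and 34.5), and of 8 hepatocyte markers 3 were counted and 1 fell (40.0, 93.0 and 40.4 against 38.8, 225.4 and 63.7). Of 10 ciliated cell markers 5 were counted and CCDC40 alone rose (log2 fold change 1.26, adjusted p = 0.0055 by edgeR, and 1.16 with 0.11 without GM18505), with summed scaled counts of 123.5, 266.5 and 178.3 under arsenite against 125.7, 198.1 and 171.6. Cardiomyocyte (2 of 7 counted) and keratinocyte markers (2 of 7) gave 1 fall each and no rise. The table lists only genes read in every library, so a marker present in a single culture would be missing from these sums. Whether cells of these kinds had a part in the results was not tested.

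None of the neighbouring genes counted on the chromosomes rose. Next to LHX3, QSOX2 fell (log2 fold change −2.10), next to AK5, PIGK (−3.02) and ZZZ3 (−1.83) fell, and next to NEUROD2, CDK12 fell (−1.57). CTF1 lies between BCL7C (−0.81) and FBXL19 (−0.54), neither of which passed, and their GM19193 log2 ratios were −0.46 and 0.06 against 6.81 for CTF1. How strand was treated in counting is not given in the sources used here. Reads of COL1A2, AK5 and DRC7 therefore cannot be told apart from reads in any exons shared with noncoding genes on the other strand. Such genes overlap their spans, introns included, and shared exons were not looked for. On the same strand, DRC7 also overlaps the processed pseudogene MTCH2P3 over 1176 bases and AK5 the small nuclear RNA gene RNU7-8P over 62 bases, neither of which is in the table.

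Coding sequences of the 9 genes had a median G and C content of 61.3% (range 45.9% for AK5 to 74.6% for CTF1), beside 52.1% over 10845 protein-coding genes counted. IL20RA (48.7%) and AK5 lay below that value for all genes. Upstream start codons, known to change how a message is translated under stress, were in the annotated 5′ leaders of 4 of the 9 (IL20RA, NEUROD2, COL1A2 and DRC7), a share of 44.4% beside 40.7% of all. The median coding length was 1323 bases against 1440.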

How the data were processed

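Footprints came from 3 lymphoblastoid cell lines, each with 1 culture in 134 µM sodium arsenite for 30 min and 1 control culture, in a T and a U library per culture. The deposited tables hold raw counts of reads that mapped uniquely, per gene and per spike-in oligomer. To make them the authors discarded reads of rRNA, tRNA and snoRNA, aligned the rest to GRCh38 (TopHat2) and counted them on GENCODE release 37 (featureCounts, Subread). For tool versions and the strand setting of counting, no value is given in the sources used here. Genes lacking a read in any library were dropped by the authors, and the deposited counts are not normalized, so weakly expressed genes may be missing from the table. Over genes and libraries the median was 34 counts.

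Identifiers were matched to symbols and to GENCODE release 44, and 12020 of 12357 had a symbol. T and U counts were summed per culture and tested with edgeR 4.0.16 (glmQLFit, glmQLFTest) in R 4.3.3 with cell line as a block, two-sided, at a Benjamini-Hochberg adjusted p of 0.05 over all genes. A spike-in scale stood in for library size (SE 0.07 to 0.16): for the 7 oligomers that had 10 or more reads in each library, log2 nominal concentration was subtracted from log2 count and the differences were averaged. The share of each mix in a pool and the pool that each sample received were read from a picture of the study's pooling design and are given in no label or deposited file, and the pool so read matched the oligomer counts best in all 12 libraries. A scale free of these readings was added after seeing the data. It averaged log2 counts of the most concentrated oligomer of each of the 4 mixes, since in a Latin square the log2 concentrations of a full set of mixes have the same sum in every pool. Samples pair by cell line, and deviations of both cultures of a line from their group means correlated across genes at 0.553 in GM18505, 0.514 in GM19193 and 0.473 in GM19204. Ratios per pair used a pseudocount of 0.5. Where nothing more is said, p-values measure the spread between 3 cell lines, with a dispersion that edgeR moderates across genes.

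The 9 genes, partner lists, markers and motifs were chosen with earlier results of these data known. From the partner lists at most 3 genes per list with the smallest p were named. ADAMTS2, COL1A1 and LIFR were added after their values were seen. Likeness was the highest Pearson r over 12 libraries. Alternatives were equal library sizes, TMM, 16 oligomers, a mean count of at least 10, T or U alone, no block, DESeq2 1.42.0, limma 3.58.1 on log2(count + 0.25) and each cell line left out. On simulated counts for 12357 genes, the arsenite test called 90% of 50 genes simulated at a log2 fold change of 2, 100% of 50 at 3, 76% of 50 at −2 and 90% of 50 at −3. These counts had equal library sizes, a single dispersion, no fall of all genes and the same change in every cell line. They therefore do not give the power under the fall seen here or for a gene raised in a single line. The cell line test recovered 95% of 200 genes simulated with a log2 difference of 3 in GM19193 alone. Library sizes were again equal, the single dispersion was lower and no fall of all genes was simulated. That share therefore does not give the power for smaller differences or for these data. Some genes that these lists or the neighbour search named are not reported here.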

Additional observations from a re-analysis of the deposited data

Results flagged for a closer look

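The arsenite effect differed between cell lines for 7 of the 9 genes, by the test of the cell line by treatment terms, whose only replicates are T and U libraries of 1 culture. As the log2 ratio in GM19193 minus the mean of GM18505 and GM19204, the difference was 7.89 for DRC7, 7.52 for CTF1, 3.58 for LHX3, 3.12 for COL1A2, 1.92 for PFN3 and 1.53 for NEUROD2, and −0.70 for IL20RA, whose ratio was highest in GM19204. The differences are not adjusted for all genes, whose median log2 ratio was −1.29 in GM19193, −1.86 in GM18505 and −2.21 in GM19204. Over all genes the same test called 5340 (43.2%), so that a call by itself sets a gene apart little, and with 1 culture per line and condition a cell line and its culture cannot be told apart. With equal library sizes 231 of all genes passed, and of the 9 genes COL1A2, CTF1 and DRC7 alone. No outlier test within a group was run, since each group holds 3 cultures.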

How the results depend on the processing

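The number of genes higher under arsenite, 138 beside 9162 lower, was 84 with equal library sizes, 212 with all 16 oligomers, 88 with DESeq2, 226 with limma on unscaled libraries, and 58 to 149 with each cell line left out (58 without GM18505, 149 without GM19193). TMM, which sets the median log2 fold change to 0.03 in place of −1.78, gave 3433 higher beside 3290 lower, and moved 6 of the 9 genes up by more than 1 SD. On the scale from 4 oligomers that uses no concentrations, chosen after seeing the data, 96 genes were higher, all 9 genes described among them, 6 of the 9 were again higher in every cell line, CTF1 had 2.61 and DRC7 2.48, and the log2 ratios moved by −0.02 in GM18505, 0.15 in GM19193 and −0.10 in GM19204. Without the replicate block for the cell line, 79 genes were higher, and all 9 genes described were among them. A mean count of at least 10 left 7 of the 9 genes in the test.

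Of 115 fitted fold changes of the 9 genes under the alternatives 2 changed sign, CTF1 to −0.66 and DRC7 to −0.79 without GM19193 (leaving out each cell line, −0.66 to 4.86 and −0.79 to 4.79). Without GM19193, LHX3 had 0.36 in place of 2.18 and COL1A2 0.24 in place of 1.56, and CTF1 had 0.90 with DESeq2 and 5.71 without the block, in place of 3.11. T libraries alone gave 3.38 for LCAT and 1.24 for AK5, and U libraries alone 2.92 for AK5. Genes past the threshold numbered 9 of 9 with equal library sizes, TMM, 16 oligomers, 4 oligomers, U alone, limma, no block, without GM18505 and without GM19204, 7 with T alone, and 5 with DESeq2 or without GM19193. The 9 genes were chosen on this same contrast, so these counts are a description and no measure of support. Of all 12357 genes, 3433 were called higher with TMM, 102 with T alone, 139 with U alone and 113 without GM19204. Genes higher in every cell line compared were 6 of 9, and 5 to 9 under the alternatives (9 with TMM). Genes with a difference between cell lines numbered 231 with equal library sizes, against 5340. The cause of these differences was not tested. For LCAT, AK5, LHX3, CTF1 and DRC7, control counts of 2 to 11 per culture limit what can be said of any 1 cell line. The same limit applies to NEUROD2 in GM19204 (4 control footprints), COL1A2 in GM19204 (10) and PFN3 in GM18505 (11).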
